A study of Mus musculus with 6 samples.

Results

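The genes described here encode the enzymes that write or erase methyl groups on lysines of histones, with the subunits that the H3K4 writers need. The list has 46 genes and leaves out the PRC2 complex, and probes were assigned to it through the RefSeq accession that the scanner output gives for each probe. Of the 46, 44 had such a probe and all 44 passed the filter on dim probes, against 14898 genes tested in all, and *Kmt2a* and *Setdb2* had no probe named in this way. WT cells are OS3 cells, a glial line from the brain of a newborn male C3H/HeN mouse (strain C3H in the labels) immortalized with SV40, carrying an empty pcDNA3.1 plasmid. IG27 cells are OS3 cells transfected with the same plasmid carrying H3F3A_K27M, so both groups share the SV40 background, the transfection and the drug selection. Each group had 3 dishes, cultured for 2 days in MEM-α with serum, insulin and added glucose, and 1 single-color Agilent array was hybridized per dish. The sources used here do not say whether IG27 is 1 clone, so a difference between the groups cannot be told apart from one between clones, and p-values measure the spread between dishes.

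Methyl groups on H3K4, H3K36 and H3K79 are known mainly from active genes, and those on H3K9 and H3K27 from silent ones. SET domain proteins and DOT1L write the marks, and flavin-dependent KDM1 and oxygen- and α-ketoglutarate-dependent Jumonji enzymes remove them. In diffuse midline glioma the K27M mutation of H3.3 lowers H3K27 trimethylation, and the demethylases of this residue are studied there for that reason.

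All values are the log2 of the processed signal minus the 75th percentile of its array, and a difference is the mean of IG27 minus the mean of WT on this scale. The values of IG27 replicate 2 come from the deposited table, because its scanner output is cut short. All IG27 arrays lay in 1 row of the slide with WT replicate 2, and the other WT arrays in another row. A gene was called when the adjusted p of limma (two-sided, Benjamini-Hochberg adjustment over all genes tested) was under 0.05. Calls of a gene's dimmer probes come from a separate limma fit over all tested named probes, adjusted over those probes, at the same threshold. The arrays of the 2 groups differed broadly, as 70.5% of all genes tested were called, 30.5% higher and 40.0% lower in IG27 cells, and 23.1% were called with at least a 2-fold difference. The glial genes *Gfap*, *Nes*, *Vim* and *Sox10* were above background on all complete arrays, and *Aqp4*, *Sox9* and *Olig2* were dim. *Slc1a3*, a glutamate transporter of astrocytes, was not above background in WT cells, where it was at least 20.6-fold lower in the main values. It passed the filter only through IG27 arrays, and this bound was not tested under other processing. The neuronal genes *Rbfox3* and *Syt1*, the microglial genes *Cx3cr1*, *Ptprc* and *Tyrobp*, and the endothelial genes *Cdh5*, *Tek* and *Cldn5* did not pass the filter on dim probes. *Tubb3*, *Snap25* and *Syp* of the neuronal, *Itgam* and *Csf1r* of the microglial and *Pecam1* of the endothelial list were detected in both groups. The endothelial *Kdr*, neuronal *Map2* and microglial *Aif1* were detected in IG27 cells, but on 0, 1 and 1 WT arrays. *H3f3a* itself differed by -0.26 (adjusted p = 0.0237 from limma), and no source says whether its probe reads the plasmid's RNA, so it does not check the labels.

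Of the 44 genes, 28 were called (63.6%), 17 higher and 11 lower in IG27 cells, and 16 were not called. The called share of 63.6% lay near the 70.5% of all genes. At least a 2-fold difference was called in 4 of them (9.1%, against 23.1% of all genes). These 4 were *Kdm5b*, *Kdm6b* and *Smyd5*, which were higher, and *Phf2*, which was lower. Each was read by 1 probe only. *Smyd5* passed the filter only through the group where it is high. Without *Smyd5*, 27 of 43 were called (62.8%), 16 higher and 11 lower, 3 of them with at least a 2-fold difference. The shares of all genes, 70.5% and 23.1%, include genes such as *Slc1a3* that also passed only through the group where they are high. Shares of all genes without such genes were not calculated, so the counts among the 43 have no like-for-like comparison. The groups did not overlap in 32 of the 44, against 75.7% of all genes, including all 28 that were called. Blocking on slide row left 24 genes called. The median difference of the list was 0.06, against -0.07 over all genes tested. By role, 5 of the 18 methyltransferases assigned to a residue were higher, 5 lower and 8 not called, and of the 18 demethylases 7 were higher, 5 lower and 6 not called. Over all genes tested 30.5% were higher and 40.0% lower, and the counts by residue below stand beside the same shares. For none of H3K4, H3K9 and H3K36 were the writers all higher and the erasers all lower, or the reverse.

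**Figure D1:**
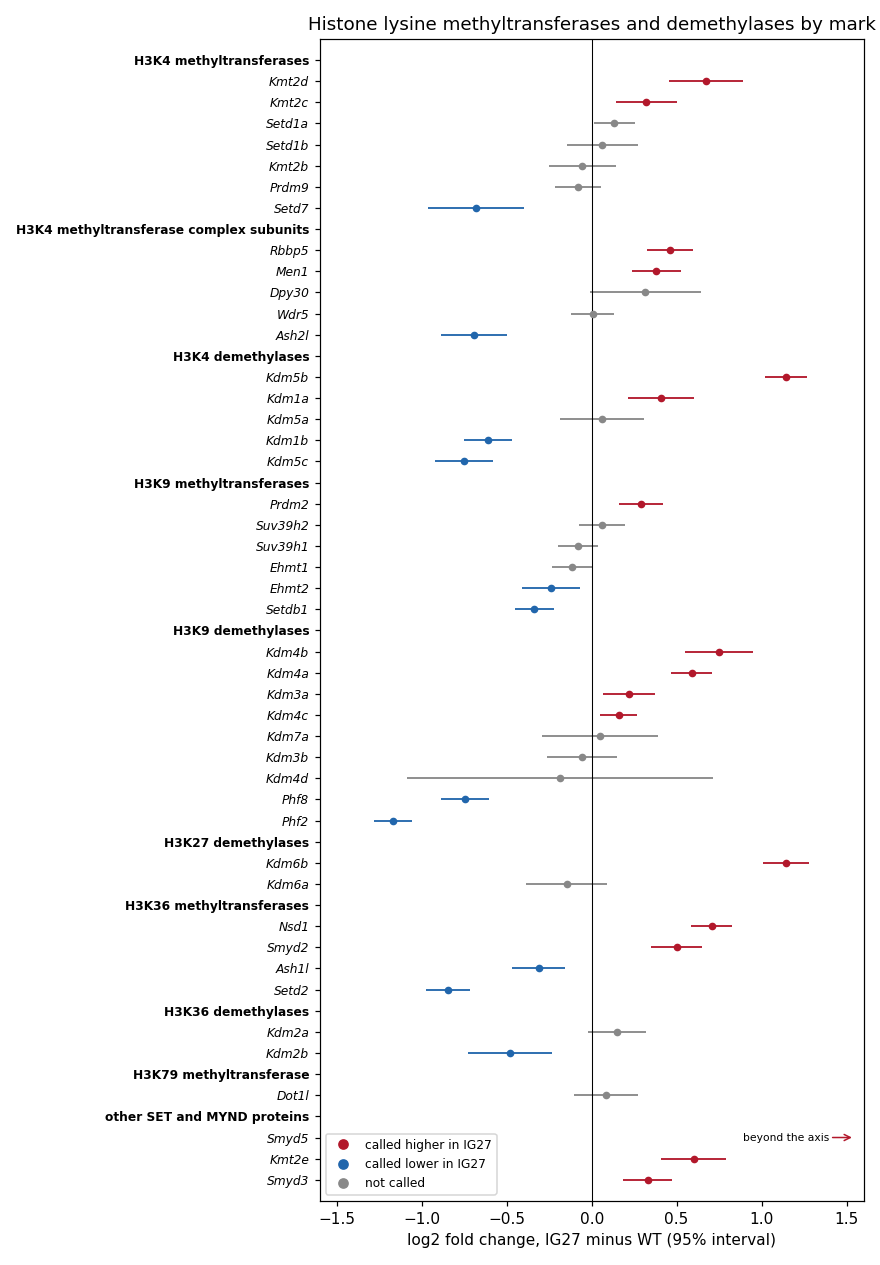
Difference in log2 level (IG27 minus WT, horizontal axis) of the 44 measured genes, grouped by the mark written or erased; points are fitted differences of 3 against 3 arrays and bars their 95% intervals. *Kdm5b* and *Kdm6b* stand to the right of 1 and *Phf2* to the left of -1, and *Smyd5*, which was not well above background in WT cells, lies beyond the axis.

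The H3K27 demethylases act on the residue that is mutated in the H3.3 of IG27 cells, and 1 of the 2 was called. *Kdm6b* (JMJD3), an inducible Jumonji enzyme that removes H3K27 trimethylation, had levels of 0.60, 0.58 and 0.56 on the arrays of WT replicates 1 to 3 and of 1.79, 1.73 and 1.64 on those of IG27 replicates 1 to 3. All IG27 arrays were above all WT arrays. The difference was 1.14 (standard error 0.06, adjusted p = 7.47e-06 from limma), a 2.21-fold higher level in IG27 cells. *Kdm6a* (UTX), the X-linked enzyme of the same reaction, had levels of -0.90, -1.16 and -1.25 in WT replicates and of -1.29, -1.23 and -1.23 in IG27 replicates, so the groups overlapped. Its difference of -0.15 was not called (adjusted p = 0.218 from limma), and its 95% interval ran from -0.38 to 0.09. Within each array the level of *Kdm6a* minus that of *Kdm6b* was lower in every IG27 sample than in any WT sample, by 1.29 on average. The RNA balance at these 2 probes was therefore shifted toward *Kdm6b* on all 3 IG27 arrays. This follows from the differences of both genes and is no separate result. *Uty*, the Y-linked relative of *Kdm6a*, was near background in both groups and was not tested.

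**Figure D2:**
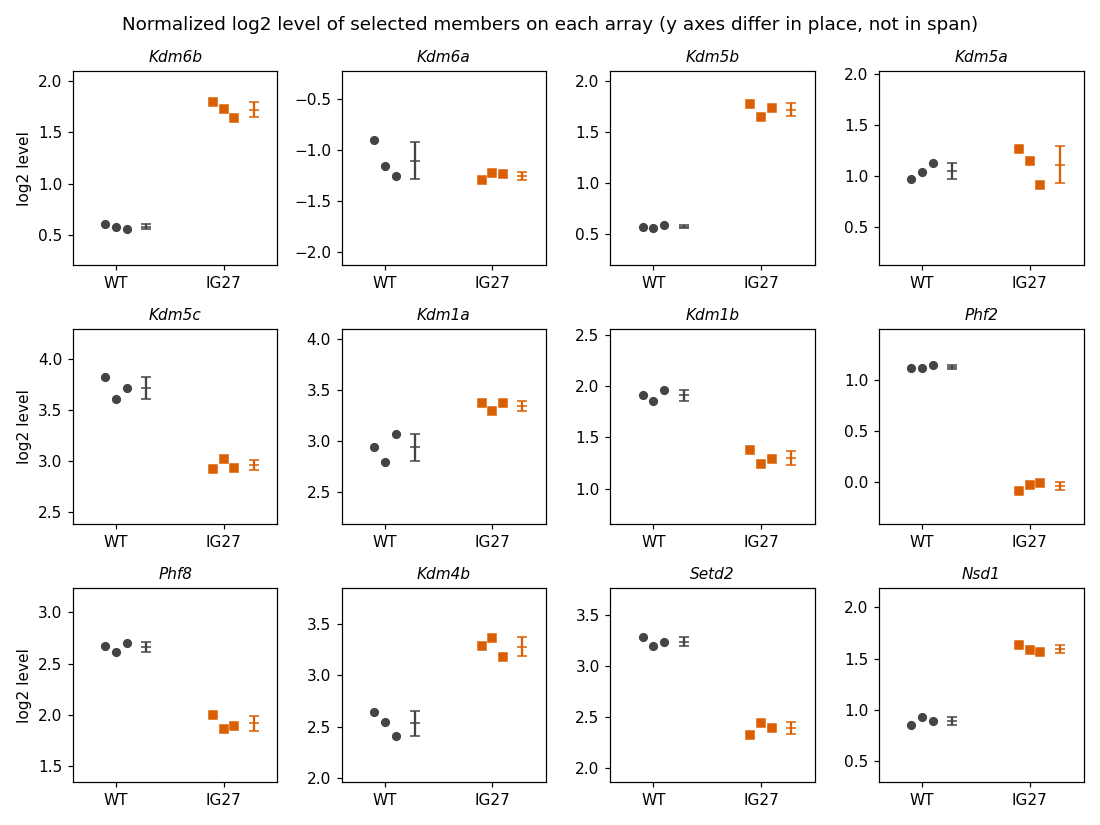
Normalized log2 level (vertical axes) of 12 genes on each array; circles are the 3 WT arrays, squares the 3 IG27 arrays, and bars show mean ± SD (n = 3). The groups are apart in every panel except those of *Kdm6a* and *Kdm5a*.

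Among the H3K4 demethylases, *Kdm5b* and *Kdm1a* were higher, *Kdm5c* and *Kdm1b* lower, and *Kdm5a* was not called. *Kdm5b* (JARID1B), which removes the higher H3K4 methylation states, had levels of 0.57, 0.56 and 0.59 in WT replicates and of 1.77, 1.65 and 1.73 in IG27 replicates. Every IG27 array was brighter, by 1.14 on average (standard error 0.05, adjusted p = 5.02e-06 from limma), or 2.21-fold. *Kdm5c* (JARID1C), its X-linked relative known for its role in neurons, went the other way, with levels of 3.82, 3.61 and 3.71 in WT and of 2.93, 3.02 and 2.94 in IG27 replicates. It fell by 0.75 (standard error 0.07, adjusted p = 1.23e-04 from limma), and its second probe gave -0.68. *Kdm5a* (JARID1A), a partner of the retinoblastoma protein, had levels of 0.97, 1.04 and 1.12 in WT and of 1.27, 1.14 and 0.91 in IG27 replicates. The groups overlapped and the difference of 0.06 was not called (95% interval -0.18 to 0.31), while its dimmer probe was called at 0.43. *Kdm5d*, the Y-linked relative of *Kdm5c*, was near background in both groups and was not tested.

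The difference of *Kdm5b* minus *Kdm5c* within an array was higher in every IG27 sample, by 1.90 on average, the largest shift among the 11 pairs of relatives compared. *Kdm5a* minus *Kdm5b* was lower by 1.08 and *Kdm5a* minus *Kdm5c* higher by 0.81, again with no overlap. The flavin-dependent enzymes also parted. *Kdm1a* (LSD1), the catalytic subunit of the CoREST complex, rose from a mean of 2.94 ± 0.14 to 3.35 ± 0.05 (SD, n = 3 each), a difference of 0.41 (adjusted p = 0.00395 from limma). *Kdm1b* (LSD2), which acts on H3K4 in growing oocytes and in gene bodies, fell from 1.91 ± 0.05 to 1.30 ± 0.07 (SD, n = 3 each), a difference of -0.61 (adjusted p = 1.43e-04 from limma). The within-array difference of *Kdm1a* minus *Kdm1b* rose by 1.02 with no overlap between groups. The shifts of all these pairs follow from the differences of the single genes and are no separate results. Over all genes tested 75.7% did not overlap.

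**Figure D3:**
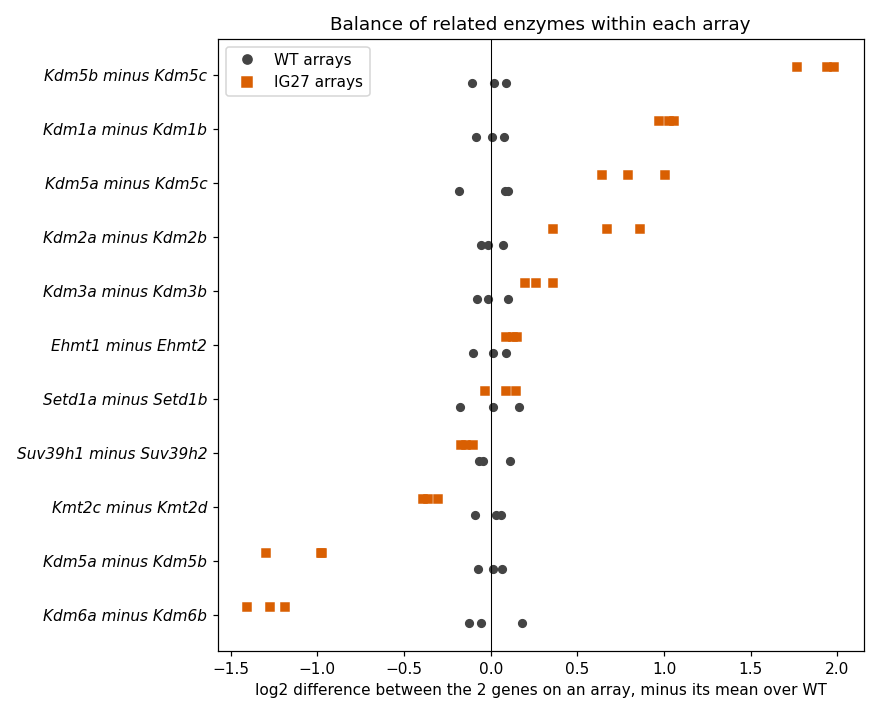
Log2 difference between 2 related genes on each array, minus its mean over the WT arrays (horizontal axis), for 11 pairs; circles are WT arrays and squares IG27 arrays. Only *Setd1a* minus *Setd1b* overlaps between groups, and *Kdm5b* minus *Kdm5c* moves farthest, by 1.90. The pair differences follow from those of the single genes, and 75.7% of all genes tested did not overlap between groups.

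Of the 7 H3K4 methyltransferases measured, 2 were higher, 1 lower and 4 not called. *Setd7*, a monomethyltransferase with many non-histone substrates, had levels of 3.64, 4.01 and 3.59 in WT and of 3.08, 3.10 and 3.03 in IG27 replicates. The WT arrays spread more widely than the IG27 arrays but lay above them all, and the fall of 0.68 was called (standard error 0.12, adjusted p = 0.00218 from limma). The call of *Setd7* was lost with normexp background correction (-0.43, adjusted p = 0.082). The enhancer enzymes *Kmt2d* (MLL4) and *Kmt2c* (MLL3), which write H3K4 monomethylation, were both higher. *Kmt2d* rose by 0.67 (adjusted p = 6.62e-04 from limma), from levels between -2.04 and -1.94 in WT to levels between -1.49 and -1.18 in IG27 replicates. *Kmt2c* rose by 0.32 (adjusted p = 0.00824 from limma), and the call was lost within the row of the slide that held all IG27 arrays and WT replicate 2 (0.31, adjusted p = 0.0624).

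None of the enzymes that write H3K4 trimethylation at promoters was called at its brightest probe. *Setd1a* was at 2.39 ± 0.04 in WT and 2.52 ± 0.04 in IG27 cells (SD, n = 3 each), and its difference of 0.13 narrowly missed the threshold (adjusted p = 0.0527 from limma) although the groups did not overlap. It was called in 5 of 18 alternative settings, with quantile normalization (0.27) and normexp (0.37) among them. *Setd1b* (0.06, 95% interval -0.15 to 0.27) and *Kmt2b* (-0.06, 95% interval -0.25 to 0.14) were not called and overlapped, while the third probe of *Setd1b* was called at 0.66. *Prdm9*, the meiotic enzyme that marks recombination sites, was listed at levels between 1.07 and 1.25 on all arrays and was not called (-0.08), while its dimmer probe was called at -0.27.

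The subunits that the H3K4 methyltransferases share did not move together. *Ash2l*, a core subunit needed for their activity, had levels of 2.93, 3.03 and 3.07 in WT and of 2.20, 2.30 and 2.45 in IG27 replicates. It fell by 0.69 with no overlap (standard error 0.08, adjusted p = 3.61e-04 from limma), and its second probe fell by 0.81. *Rbbp5*, which binds *Ash2l* in the same core, rose by 0.46 (adjusted p = 4.20e-04 from limma). *Men1*, the menin tumor suppressor of the MLL1 and MLL2 complexes, rose by 0.38 (adjusted p = 0.00138 from limma). *Wdr5*, the subunit that presents the H3 tail, was at 2.67 ± 0.01 in WT and 2.68 ± 0.07 in IG27 cells (SD, n = 3 each), and the 95% interval of its difference ran from -0.12 to 0.13. *Dpy30* was higher on all IG27 arrays, but its difference of 0.32 was not called (adjusted p = 0.074 from limma), and its dimmer probe was called at 0.28. Without WT replicate 3 *Dpy30* was called (0.41, adjusted p = 0.044 from limma).

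The H3K9 methyltransferases showed small differences. Of 6 measured, *Prdm2* was higher, *Setdb1* and *Ehmt2* lower, and *Suv39h1*, *Suv39h2* and *Ehmt1* were not called. *Setdb1*, which writes H3K9 trimethylation over endogenous retroviruses, had levels of 1.16, 1.21 and 1.21 in WT and of 0.82, 0.90 and 0.83 in IG27 replicates. The groups were apart, and the fall of 0.34 was called (standard error 0.05, adjusted p = 9.39e-04 from limma). *Ehmt2* (G9a), the main euchromatic H3K9 dimethyltransferase, fell by 0.24 (adjusted p = 0.0222 from limma), and this call was lost in 7 of 18 alternative settings, without IG27 replicate 1 (-0.25, adjusted p = 0.0518) and without IG27 replicate 2 (-0.22, adjusted p = 0.0723) among them. Its partner *Ehmt1* (GLP) was lower on all IG27 arrays but missed the threshold (-0.12, adjusted p = 0.0761 from limma). *Suv39h1*, an X-linked writer of pericentromeric H3K9 trimethylation, was at 3.98 ± 0.03 in WT and 3.90 ± 0.04 in IG27 cells (SD, n = 3 each) and was not called. *Suv39h2* overlapped between groups at its brightest probe (0.06), whereas its dimmer probe was called at -0.64, so the 2 probes disagree on this gene. *Prdm2* (RIZ1) rose by 0.29 (adjusted p = 0.00288 from limma) at its brightest probe, while 1 of its dimmer probes gave -0.21 and was not called.

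Of the 9 H3K9 demethylases, 4 were higher, 2 lower and 3 not called. *Phf2*, a Jumonji protein that removes H3K9 dimethylation and is recruited through H3K4 trimethylation, had levels of 1.12, 1.12 and 1.15 in WT and of -0.08, -0.03 and -0.01 in IG27 replicates. This was the largest fall of the list, -1.17 (standard error 0.05, adjusted p = 2.99e-06 from limma), a 2.25-fold lower level, with no overlap. *Phf8*, an X-linked member of the same family, fell from 2.66 ± 0.05 to 1.92 ± 0.07 (SD, n = 3 each), and all 3 of its probes were called lower, from -0.80 to -0.26. The third member, *Kdm7a*, was not called at its brightest probe (0.05, 95% interval -0.29 to 0.39) and was called at -0.44 at its dimmer probe, and without IG27 replicate 1 its brightest probe was called higher (0.21, adjusted p = 0.0263 from limma).

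Of the KDM4 enzymes, which act on trimethylated H3K9 and only in part also on H3K36, 3 were higher and *Kdm4d* was not called. *Kdm4b* rose from levels of 2.64, 2.54 and 2.41 in WT to 3.29, 3.37 and 3.18 in IG27 replicates, a difference of 0.75 (standard error 0.08, adjusted p = 2.79e-04 from limma). *Kdm4a* rose by 0.59 (adjusted p = 8.90e-05 from limma), and its dimmer probe by 1.35. *Kdm4c* rose by 0.16 (adjusted p = 0.0175 from limma), a call lost in 5 of 18 settings, without WT replicate 3 (0.15, adjusted p = 0.0553) and without IG27 replicate 2 (0.15, adjusted p = 0.0611) among them. *Kdm4d*, a gene known from testis, was dim and spread from -4.18 to -2.72 over the IG27 arrays, and its 95% interval ran from -1.09 to 0.71. Without IG27 replicate 2, whose scanner output is cut short, *Kdm4d* was called lower (-0.62, adjusted p = 0.0135 from limma), as it was with normexp (-0.52). *Kdm3a* (JMJD1A), a hypoxia-induced eraser of H3K9 dimethylation, rose by 0.22 (adjusted p = 0.021 from limma), a call lost in 6 of 18 settings, without WT replicate 2 (0.18, adjusted p = 0.0613), IG27 replicate 2 (0.20, adjusted p = 0.0667) and IG27 replicate 3 (0.19, adjusted p = 0.0691) among them. *Kdm3b* overlapped between groups (-0.06, 95% interval -0.26 to 0.15).

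All 4 H3K36 methyltransferases were called, 2 higher and 2 lower. With 70.5% of all genes called, 4 genes are too few to set this group apart. *Setd2*, known as the only writer of H3K36 trimethylation in most cells and a tumor suppressor in glioma, had levels of 3.28, 3.19 and 3.23 in WT and of 2.33, 2.44 and 2.39 in IG27 replicates. It fell by 0.85 with no overlap (standard error 0.05, adjusted p = 2.31e-05 from limma), and its 4 probes ranged from -0.92 to -0.41, of which 2 were called. *Nsd1*, which writes H3K36 dimethylation, rose from levels of 0.85, 0.93 and 0.89 to 1.63, 1.59 and 1.56. The rise was 0.71 (standard error 0.05, adjusted p = 3.24e-05 from limma), and 1.27 at its dimmer probe. *Smyd2*, which also methylates p53, rose by 0.50 (adjusted p = 5.03e-04 from limma). *Ash1l*, a dimethyltransferase that opposes Polycomb, fell by 0.31 (adjusted p = 0.00473 from limma).

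Of the 2 H3K36 demethylases, *Kdm2a* was not called at its brightest probe (0.15, 95% interval -0.02 to 0.32) but was called at 0.87 at 1 dimmer probe, and without IG27 replicate 1 the brightest was called as well (0.21, adjusted p = 0.0183 from limma). *Kdm2b*, which binds unmethylated CpG islands and brings Polycomb to them, had levels of 3.41, 3.29 and 3.42 in WT and of 3.04, 2.96 and 2.69 in IG27 replicates. The groups did not overlap and the difference of -0.48 was called (adjusted p = 0.00543 from limma), as was -0.47 at a second probe. The third and dimmest probe of *Kdm2b* went up by 0.23 and was called as well (adjusted p = 0.0414 from limma), so this gene was the single member with probes called both ways, and within the row of the slide its call was lost (-0.40, adjusted p = 0.0654). *Dot1l*, the H3K79 methyltransferase, had levels of 2.80, 2.81 and 2.65 in WT and of 2.73, 2.86 and 2.93 in IG27 replicates. It overlapped between groups and was not called (0.08, 95% interval -0.10 to 0.27).

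*Smyd5*, reported to write H3K36 and H4K20 trimethylation, was not well above background on any WT array, with measured levels of -7.95, -6.36 and -6.18, and was dim but detected at -3.21, -3.06 and -2.87 in IG27 replicates. Set against the lowest signal that was well above background on each WT array, it was at least 6.61-fold higher in IG27 cells in the main values. Its call compares IG27 values with background, in a gene that passed the filter only through IG27 arrays, so its p-value is no support. The fitted log2 difference depended on the processing and was 1.28 with normexp, against 3.78 in the main values. The 6.61-fold bound therefore does not hold with normexp. *Kmt2e* (MLL5), whose SET domain has no known histone activity, rose by 0.60 (adjusted p = 6.71e-04 from limma), and *Smyd3*, which methylates the kinase MAP3K2, rose by 0.33 (adjusted p = 0.00283 from limma).

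Enzymes that act on more than 1 residue can be counted differently. With *Kdm4a* to *Kdm4d* under H3K36, *Kdm2b* under H3K4, *Kdm7a* under H3K27 and *Smyd3* under the H3K4 writers, the H3K9 demethylases had 1 higher and 2 lower, and the H3K36 demethylases had 3 higher and 0 lower. *Kdm4d* was moved only as part of its family. It was not called, so these counts do not depend on where it stands. The direction of single genes is not touched by this choice, and the counts per residue are.

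Where a gene had several probes, they usually went the same way. Several tested probes were present for 22 genes, of which 16 had all probes of 1 sign and 6 did not. *Kdm5b*, *Kdm6b*, *Phf2* and *Smyd5*, with the largest differences, had 1 probe each and are not among the 22. Of 19 dimmer probes of called genes, 17 had the sign of the brightest probe. *Kdm4a* and *Nsd1* had larger differences at the dimmer probe, so the size of their rise depends on the probe. Which transcripts each probe reads was not tested.

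**Figure D4:**
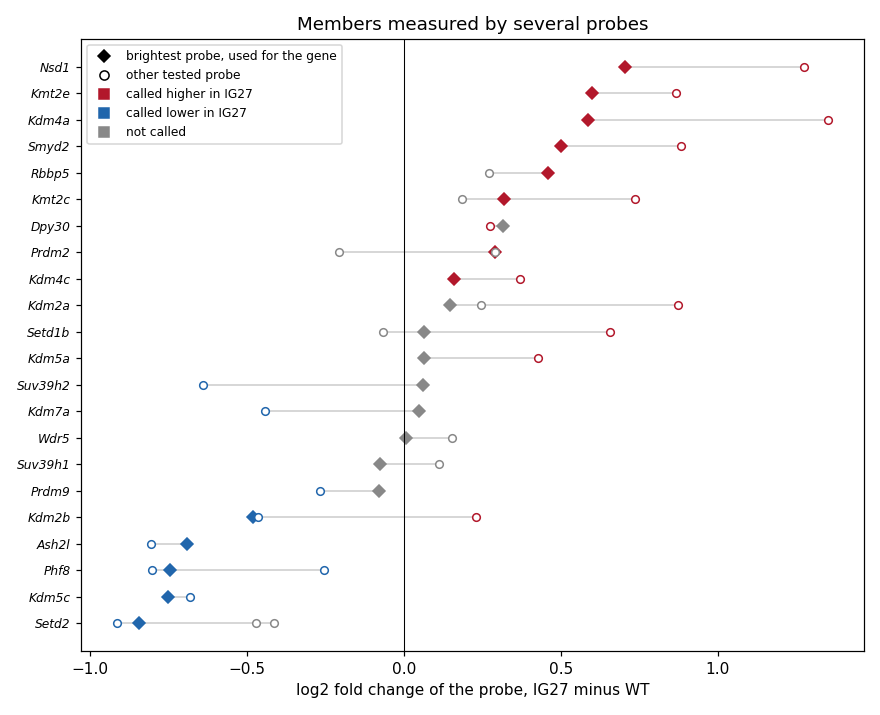
Log2 difference (IG27 minus WT, horizontal axis) of every tested probe of the 22 genes with more than 1; diamonds are the brightest probe, used for the gene, and circles the others. Most genes keep to 1 side of 0, and *Kdm2b* has probes called on both sides.

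The chromosomes of IG27 cells differed in their general level, and the genes were set against it. The median difference of all tested genes was -0.59 on chromosome X, -0.64 on chromosome 9, -0.67 on chromosome 8, 0.33 on chromosome 4 and 0.30 on chromosome 15. Of the 4 X-linked genes, *Kdm5c* and *Phf8* were lower by about the chromosome's median (-0.16 and -0.15 beyond it), and *Kdm6a* and *Suv39h1* were not called and lay 0.45 and 0.52 above it. *Ash2l* on chromosome 8 differed from its chromosome's median by -0.02 and *Setd2* on chromosome 9 by -0.21. On chromosome 3, whose median was -0.31, *Setdb1* stood -0.02, *Ash1l* 0.001 and *Setd7* -0.37 from it. *Kdm4a*, *Kdm1a*, *Prdm2* and *Kdm4c*, all called higher, lie on chromosome 4, and they stood 0.25, 0.07, -0.04 and -0.18 from its median. *Kdm6b* stood 1.26 above the median of chromosome 11, *Kdm5b* 1.15 above that of chromosome 1, and *Phf2* stood -1.01 from that of chromosome 13. Among the 28 called genes, *Prdm2*, *Kdm4c* and *Ash1l* did not differ from their chromosome's median in the direction of the call. *Ash2l* and *Setdb1* did so by only -0.02 each. Whether the number of chromosome copies differed between the cells was not tested.

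**Figure D5:**
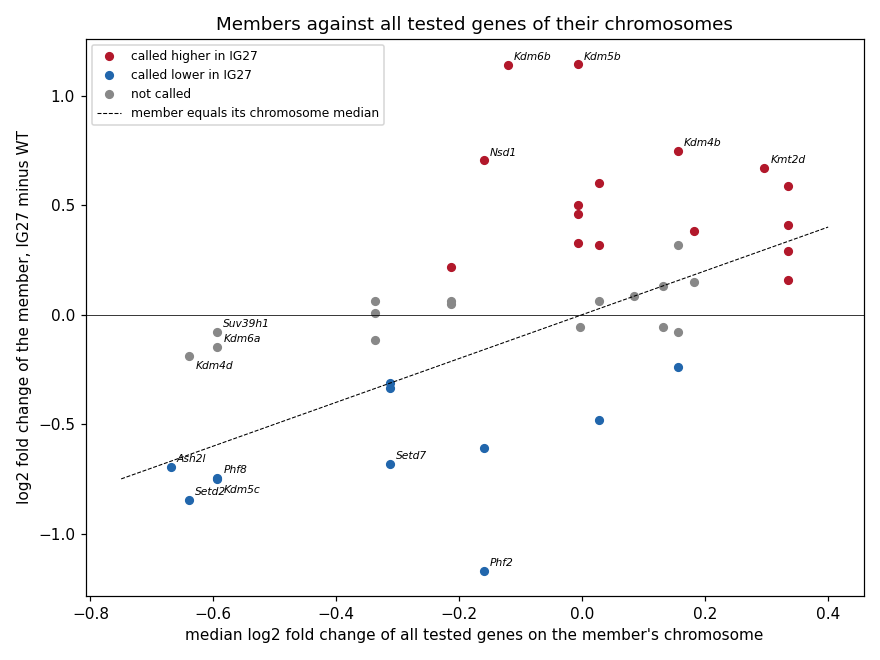
Log2 difference of each gene (IG27 minus WT, vertical axis) against the median difference of all tested genes on its chromosome (horizontal axis), without *Smyd5*; the dashed line marks equality. *Kdm6b*, *Kdm5b* and *Phf2* lie far from the line, while *Ash2l*, *Phf8*, *Kdm5c* and *Setd2* lie close to it on chromosomes with low medians.

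The sequences before the starts of 3 of the 4 genes called with at least a 2-fold difference are shown because these genes carry the largest differences. Each run is the 250 bases before the start in RefSeq (GRCm38.p6), 5′ to 3′ on the gene's strand, and capitals mark matches on either strand to the GC box (GGGCGG), the CCAAT box, the core of the hypoxia response element (ACGTG), the TATA box (searched as TATAAA) and the cAMP response element (searched as TGACGTCA), of which neighboring matches can overlap. *Kdm5b* lies on the plus strand of chr1:134559928-134560177, *Phf2* on the minus strand of chr13:48870886-48871135 and *Smyd5* on the plus strand of chr6:85431726-85431975.
Kdm5b: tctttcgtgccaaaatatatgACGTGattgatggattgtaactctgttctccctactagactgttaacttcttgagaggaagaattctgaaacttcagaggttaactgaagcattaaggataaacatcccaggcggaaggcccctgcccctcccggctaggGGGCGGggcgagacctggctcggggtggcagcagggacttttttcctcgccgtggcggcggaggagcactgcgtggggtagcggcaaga
Phf2: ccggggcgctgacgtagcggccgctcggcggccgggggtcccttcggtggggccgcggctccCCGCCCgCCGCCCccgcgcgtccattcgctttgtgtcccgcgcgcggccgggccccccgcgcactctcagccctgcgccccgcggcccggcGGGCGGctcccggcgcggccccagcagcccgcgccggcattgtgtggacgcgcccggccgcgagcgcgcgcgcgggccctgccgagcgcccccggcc
Smyd5: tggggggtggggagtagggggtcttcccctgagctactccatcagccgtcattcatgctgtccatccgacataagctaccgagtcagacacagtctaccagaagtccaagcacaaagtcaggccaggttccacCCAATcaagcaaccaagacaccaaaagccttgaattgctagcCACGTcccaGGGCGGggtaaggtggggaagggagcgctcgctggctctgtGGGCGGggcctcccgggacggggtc

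The run of *Kdm5b* holds 1 hypoxia core and 1 GC box, that of *Phf2* 3 GC boxes, and that of *Smyd5* 2 GC boxes, 1 CCAAT box and 1 hypoxia core. Windows of 250 bases before to 50 after the start were found for 33 of the 46 genes, 47 windows in all. The GC box was in 70.2% of these windows and in 35.7% of all 32851 windows of the same length. The CCAAT box was in 36.2% and 37.4%, the hypoxia core in 25.5% and 19.6%, the cAMP response element in 4.3% and 1.8%, and the TATA box in 0% and 13.6%. The median window held 27 CG dinucleotides, against 7 over all windows. Some genes, such as *Dpy30* and *Kdm2b*, have several windows. The 32851 windows belong to 27025 genes and are not limited to genes tested here, so these shares show no trait particular to the list. These are matches of letters, and binding was not measured.

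Related genes outside the list were counted as well, beside 30.5% of all genes called higher and 40.0% called lower. Of 18 other lysine methyltransferases tested, 5 were higher and 9 lower, with *Kmt5a*, the H4K20 monomethyltransferase, at -1.10 (adjusted p = 2.71e-05 from limma), *Setd6*, known for methylating RelA, at -0.85. *Prdm6*, called higher, was well above background on 1 of 3 WT arrays, with levels of -7.89, -7.61 and -5.53 in WT and of -2.91, -3.15 and -3.05 in IG27 replicates, so the size of its difference is uncertain. Of 13 other Jumonji proteins, 4 were higher and 3 lower, with *Riox2* at 1.75, *Jmjd1c* at 1.29 and *Jmjd7* at -0.96. Of 22 partner subunits, 3 were higher and 11 lower. *Rcor2*, a CoREST subunit that binds *Kdm1a*, rose by 1.69 (adjusted p = 7.00e-07 from limma), whereas *Mphosph8* of the HUSH complex, which works with *Setdb1*, fell by 1.35 and *Wdr82*, a subunit of the *Setd1a* and *Setd1b* complexes, fell by 0.97. Of 5 readers of H3K9 methylation, 3 were higher and 1 lower, with *Cbx3* at -0.56, *Cbx1* at 0.33 and *Cdyl* at 0.32.

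Markers of other cell types moved with the groups, and their part in the differences above was not tested. Of 8 astroglial genes 3 were called higher and 3 lower, of 8 oligodendroglial genes 4 and 3, and of 3 glial progenitor genes 0 and 2. Over all genes tested these shares were 30.5% and 40.0%. The higher astroglial genes include *Slc1a3*, which passed the filter only through IG27 arrays. The summed linear level of the astroglial list, in units of each array's 75th percentile, was 98.4 to 108 in WT and 57.7 to 66.1 in IG27 samples, that of the oligodendroglial list 108 to 117 and 87.7 to 91.2, and that of the progenitor list 194 to 203 and 156 to 174. *Gfap* alone made up 96.1% to 96.4% of the astroglial sum in WT and 73.7% to 78.4% in IG27 samples, while *S100b*, another gene of that list, rose by 4.93. *Sox10* and *Cnp*, both called lower, made up 45.6% to 50.2% and 32.1% to 37.3% of the oligodendroglial sum in WT samples. *Vim*, not called, made up 69.1% to 70.2% of the progenitor sum in WT and 74.5% to 77.4% in IG27 samples. The sums therefore follow a few bright genes and not the whole lists. Of the 6 neuronal genes 4 were tested, 1 higher and 1 lower (summed 18.5 to 20.7 in WT and 10.9 to 12.0 in IG27). Of the 6 microglial genes 3 were tested, 2 higher and 1 lower (11.7 to 12.2 and 12.0 to 12.4). Of the 5 endothelial genes 2 were tested, 1 higher and 1 lower (0.172 to 0.194 and 2.60 to 2.67), and *Kdr*, which was not well above background in WT cells, made up 93.6% to 94.5% of that sum in IG27 samples. Of the 6 mesenchymal genes 4 were tested, 2 higher and 2 lower (150 to 154 and 134 to 142). *Col1a1*, called lower, made up 75.5% to 76.6% of that sum in WT samples, and *Col3a1*, called higher, 50.9% to 52.5% in IG27 samples. *Dcn*, the other higher gene, was well above background on 0 WT arrays and passed the filter only through IG27 arrays. In cultures such as these, fewer cells of a type and less RNA per cell cannot be told apart.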

How the data were processed

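RNA of 3 WT and 3 IG27 dishes was measured on 6 single-color Agilent mouse arrays of 1 slide. The authors read the spots with Feature Extraction (version 9.1 in the submitters' processing notes, 10.7.3.1 in the file headers), and they deposited its processed signal, a linear intensity, both as scanner output and as a table of probes. The scanner output of IG27 replicate 2 stops after 285 spots, so its values came from the table, whose columns for WT replicates 2 and 3, which hold each other's values, were read by the scanner labels. Spots flagged as outliers (107 to 210 per complete array) were left out.

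Log2 intensities minus each array's 75th percentile were compared with limma (version 3.58.1, R 4.3.3). A probe was tested if all complete arrays of 1 group had it well above background, and the brightest such probe stood for its gene. Accessions named 32994 probes for 22911 genes through a table of the GRCm38.p6 assembly. Between 58.8% and 61.2% of probes were well above background per complete array, no spot was saturated, and the median signal was 55.4 to 77.6 against a local background of 29.0 to 33.5. The number of arrays limits the precision, and an exact permutation test of 3 against 3 arrays cannot go below p = 0.1.

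The members, the lists of related genes and markers and the tests were chosen with earlier results of these data known. Values per array are given for genes called with at least a 2-fold difference, both H3K27 demethylases, genes with probes called both ways or at background in 1 group, and the gene with the largest difference of each group, and further examples were chosen after their values were seen. Counts by role leave out complex subunits, Kmt2e and the SMYD proteins other than Smyd2. Within-array differences between relatives and chromosome medians carry no test. Steps were tested on simulated data. Alternatives were the slide row and replicate number as blocks, complete arrays only, the value table, quantile and normexp normalization (planned on mean signals, run on the median signals that the files give), other filters, outlier spots kept, the mean of probes, eBayes with trend, an unadjusted threshold, other residues and each array left out.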

Additional observations from a re-analysis of the deposited data

How the results depend on the processing

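Over 18 alternative settings the number of genes called stayed between 24 (slide row as a block, which compares IG27 cells with WT replicate 2) and 34 (mean of a gene's probes), and leaving out 1 array gave 26 to 29 calls, 15 to 19 higher and 10 to 11 lower. Replicate numbers did not pair the samples (correlations of deviations 0.01, 0.04 and 0.08), and with the replicate block 27 genes were called, 16 higher and 11 lower, with *Kdm3a* lost. Of the 28 called genes 21 kept the call in every setting that tested them, and *Ehmt2*, *Kdm3a*, *Kdm4c*, *Kmt2c*, *Kdm2b*, *Setd7* and *Prdm2* (mean of probes, 0.12, adjusted p = 0.172 from limma) lost it in at least 1. The median difference of the list, 0.06, became 0.18 with quantile normalization, 0.15 with normexp and 0.10 with the mean of probes, and 0.05 to 0.10 without 1 array. The median of all genes became 0.12 without a filter on dim probes. The cause was not tested.

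Counts by residue that moved by more than 1.5-fold, or to or from 0, are listed here. Smaller moves are listed only for arrays left out. With the slide row as a block, for example, 3 instead of 4 H3K9 demethylases were higher. With the slide row as a block there were 1 H3K4 methyltransferase higher, 1 H3K9 methyltransferase lower and 0 H3K36 demethylases lower. With complete arrays only there were 1 H3K9 methyltransferase lower and 2 H3K9 demethylases higher, and the same without a filter. Quantile normalization gave 4 H3K4 complex subunits, 2 H3K9 methyltransferases and 1 H3K36 demethylase higher and 1 H3K9 methyltransferase lower, and normexp gave 0 H3K4 and 1 H3K9 methyltransferase lower. The mean of probes gave 4 H3K4 methyltransferases, 0 H3K9 methyltransferases and 1 H3K36 demethylase higher and 2 H3K4 methyltransferases lower. Counting enzymes under the other residue gave 1 H3K9 and 3 H3K36 demethylases higher and 0 H3K36 demethylases lower. Leaving out 1 array gave 2 to 3 H3K4 complex subunits, 2 to 5 H3K9 demethylases and 0 to 1 H3K36 demethylases higher, and 2 to 3 H3K9 demethylases and 1 to 2 H3K9 methyltransferases lower. The other counts with an array left out were as reported.

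Beyond the main calls, 10 genes were called in 22 values. Those not given above were *Setd1a* with the mean of probes, eBayes with trend and the unadjusted threshold (0.13 each), *Setd1b* (0.22), *Prdm9* (-0.17), *Kdm5a* (0.24), *Dpy30* (0.30) and *Kdm2a* (0.42) with the mean of probes, *Wdr5* (0.15), *Dpy30* (0.46), *Suv39h2* (0.17) and *Kdm2a* (0.22) with quantile normalization, *Wdr5* with normexp (0.17), *Dpy30* with trend (0.32) and *Kdm4d* on complete arrays (-0.62).

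Signs turned in 21 values of 11 genes, none of them called in the main values. *Suv39h2* became -0.29 with the mean of probes and was called (adjusted p = 0.0021 from limma). The other turns were not called. With quantile normalization they were 0.080 (*Kmt2b*), 0.0034 (*Prdm9*), 0.079 (*Suv39h1*), 0.023 (*Ehmt1*) and -0.12 (*Kdm7a*), with normexp 0.034 (*Kmt2b*), 0.0090 (*Suv39h1*) and -0.13 (*Kdm7a*), with the mean of probes 0.017 (*Suv39h1*) and -0.20 (*Kdm7a*), and for *Kdm7a* -0.014 within the slide row and -0.035 on complete arrays. Leaving out 1 array gave -0.12 to 0.011 for *Kmt2b*, -0.016 to 0.13 for *Setd1b*, -0.031 to 0.032 for *Wdr5*, -0.017 to 0.16 for *Kdm5a*, -0.11 to 0.031 for *Kdm3b*, -0.62 to 0.12 for *Kdm4d* and -0.035 to 0.21 for *Kdm7a*.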
